A study of Mus musculus with 8 samples.

Results

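The names miR-680 to miR-721, together with miR-805 and without miR-702, are mouse microRNAs (miRNAs), most of them catalogued from the cloning of small RNAs, and they were chosen here by the number in the probe name alone. They took 43 of 433 mature names (53 of 521 probes) and 39 of 274 precursor names (49 of 300 probes) on a 1-colour miRNA array. The block was proposed with the brightness and the fold changes of these arrays known, so both are given as descriptions and no test of them is offered as support. RNA came from LSK cells of mouse bone marrow, which lack lineage markers, carry cKit and Sca1, and include the haematopoietic stem cells. The Tsc1 cKO group held 4 mice of genotype Tsc1f/f,Mx1-Cre+, and the Ctrl group held 4 littermates of genotype Tsc1f/f,Mx1-Cre-, all 10-week-old C57BL/6 females. Both groups carried the floxed Tsc1 alleles and both received 7 intraperitoneal doses of 400 μg pIpC (2 mg/ml), so the controls were exposed to this interferon inducer too, and marrow was collected 10 days later. Mx1-Cre is driven by an interferon-responsive promoter and acts in many tissues besides blood, so deletion was not restricted to the sorted cells. The design text also mentions conditional Raptor alleles, but only Tsc1 appears in the genotype labels, which were followed. The probes read miRNAs, and the loss of Tsc1 was not measured by them.

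A miRNA is cut from a hairpin precursor by Drosha in the nucleus and by Dicer in the cytoplasm, and bases 2 to 8 of the mature strand, the seed, pair with target mRNAs. Tsc1 restrains the nutrient-sensing kinase complex mTORC1, which promotes, among other processes, ribosome production. Some names in this block trace to other kinds of RNA. miR-712, miR-714 and miR-715 are known to lie in the ribosomal RNA transcription unit, miR-805 matches mitochondrial RNA, and miR-720 was withdrawn from the catalogue as a transfer RNA fragment. miR-708, miR-711, miR-718 and miR-720 are names that also exist in human, and most of the others are mouse-only names.

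RefSeq (GRCm38.p6) sequences were read here with a chromosome left out. They gave a mature sequence for 30 of the 43 mature names and a hairpin for 25 of the 39 precursor names. A name without a match is therefore not shown to be absent from RefSeq. Sequences are written 5′ to 3′ in lower case. The first set shows the members with a sequence that stood above background as mature probes, with the seed in capitals. Both arms are given for miR-700 because its array name does not say the arm.

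miR-690, chr16:28599940-28599961, minus strand: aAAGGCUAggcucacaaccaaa

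miR-703, chr5:98475616-98475636, minus strand: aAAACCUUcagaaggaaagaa

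miR-706, chr6:120034290-120034311, minus strand: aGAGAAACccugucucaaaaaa

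miR-700-5p, chr4:135416601-135416622, minus strand: uAAGGCUCcuuccugugcuugc

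miR-700-3p, chr4:135416561-135416581, minus strand: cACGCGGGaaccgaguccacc

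The second set holds members that were bright only as precursors (miR-705 and miR-718), and members whose seed is that of a widely known family (miR-708-5p and miR-721), again with the seed in capitals.

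miR-705, chr6:85336341-85336360, minus strand: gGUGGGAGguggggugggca

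miR-718, chrX:74023857-74023877, minus strand: cUUCCGCCcggccgggugucg

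miR-708-5p, chr7:96249450-96249472, plus strand: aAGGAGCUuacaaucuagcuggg

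miR-721, chr5:136375777-136375797, minus strand: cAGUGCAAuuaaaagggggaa

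For the 30 matched names, 34 mature sequences were read (both arms where the name gives none), and they held 34 distinct seeds, so none of these sequences shared its seed with another. In 5 of them the seed also occurred in other mouse miRNAs. The seed of miR-721, AGUGCAA, is that of miR-130a-3p, miR-130b-3p, miR-130c, miR-301a-3p, miR-6341 and miR-6389, and the seed of miR-708-5p is that of miR-28a-5p.

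Of the 37 loci of members examined from the RefSeq gene table, with the same chromosome left out, 25 overlapped a protein-coding gene and 9 overlapped no other gene. The overlaps are of gene spans, and exon or intron was not resolved here. The miR-690 hairpin (chr16:28599935-28600043) lay in the span of Fgf12 on the same strand, miR-700 in Rcan3, miR-705 in Rab11fip5, miR-706 in Wnk1, and miR-703 in Cfap299, where no strand is given. The miR-718 hairpin lay in Irak1, which encodes a kinase of Toll-like and interleukin-1 receptor signalling, and miR-708 lay in Tenm4. A pair of further loci, picked for their hosts after values were seen, were miR-707 in Akt1s1, which encodes the mTORC1 inhibitor PRAS40, and miR-693 in Xpo5, which encodes exportin-5, the nuclear exporter of miRNA precursors. The mature signals of both were at background, at -0.13 log2 units for miR-707, 0.09 for miR-693-3p and -0.01 for miR-693-5p.

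Hairpins are shown for miR-690, which was bright only as a mature probe, and for miR-705 and miR-718, which were bright only as precursors, with the mature strand in capitals.

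miR-690 hairpin, chr16:28599935-28600043, minus strand: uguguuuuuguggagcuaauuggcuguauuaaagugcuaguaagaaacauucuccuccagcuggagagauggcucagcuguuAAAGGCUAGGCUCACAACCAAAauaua

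miR-705 hairpin, chr6:85336292-85336373, minus strand: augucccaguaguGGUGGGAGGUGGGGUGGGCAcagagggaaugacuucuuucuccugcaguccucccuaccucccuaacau

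miR-718 hairpin, chrX:74023849-74023936, minus strand: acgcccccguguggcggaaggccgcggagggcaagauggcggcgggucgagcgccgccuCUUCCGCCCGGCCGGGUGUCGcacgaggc

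The miR-690 hairpin had a GC content of 41.3% and its mature strand lay near the 3′ end. The miR-705 strand lay near the 5′ end of a hairpin with 56.1% GC. The miR-718 hairpin had 78.4% GC, the highest of the members with a hairpin sequence.

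The mature sequence of miR-706 resembles the B1 repeat, an abundant mouse retroelement. Its first 16 bases, as DNA AGAGAAACCCTGTCTC, were searched on both strands of all promoter windows in the RefSeq table, each covering 250 bases before to 50 bases after a gene start. They were found in 28 of 32851 windows (0.0852%). Among the other member sequences read, miR-690 and miR-680 had such a match in 1 window each and the rest had none. Among the 1674 distinct mouse mature sequences searched, 1588 had no window and 12 (0.717%) had at least 5, so miR-706 was among the few found in that many windows. Copies in the rest of the genome were not counted. These matches describe the letters alone.

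Intensities are given on the log2 scale with a pseudocount of 1. The background of an array was the most frequent log2 value over both tables, and a name is called bright where its mean over the 8 arrays lay more than 1 log2 unit above it. Probes bind with different strength, so brightness tells how far a probe stood out and not how abundant its RNA was. RNA was labelled from a random octamer primer, so a probe can also bind cDNA of a longer RNA that holds its sequence. In sorted cell pools, fewer cells with an RNA and less RNA per cell cannot be told apart.

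The arrays of samples 1 and 2 in both groups were brighter as a whole, with background levels of 14.97 to 15.02, than those of samples 3 and 4, with 14.56 to 14.63. The labels do not name this split, and values within each set are given beside some of the results. Orders of mice below are by intensity, which includes this offset, unless said to be measured from background. Tsc1 cKO 4 had the fewest bright mature probes, 91 against 117 to 137 on the other arrays. The labels name a different scanner model for Tsc1 cKO 3 and again for Tsc1 cKO 4 than for the other 6 arrays, and whether these model names are right is unclear. On the marker lists for the labelled blood cells, 6 of 9 pan-haematopoietic names were bright, while 0 of 3 erythroid, 0 of 10 muscle, 0 of 8 stromal or endothelial and 0 of 1 liver names were, and 1 of 15 neural and 1 of 5 epithelial names. Of the HSC-enriched names, 2 of 12 were bright.

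As mature probes, 11 of the 43 members were bright (25.6%), against 94 of all 433 names (21.7%). They were miR-714, miR-689, miR-690, miR-709, miR-700, miR-720, miR-712-5p, miR-805, miR-706, miR-703 and miR-699, in falling order from 4.76 to 1.28 log2 units above background. The nearest member below the threshold was miR-715, at 0.95. Most of the block gave no signal: 30 of 43 members lay within 0.5 log2 units of background, against 306 of all 433 names. Names numbered above the block held no bright mature name among 13, and 1 bright precursor name among 11.

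**Figure D1:**
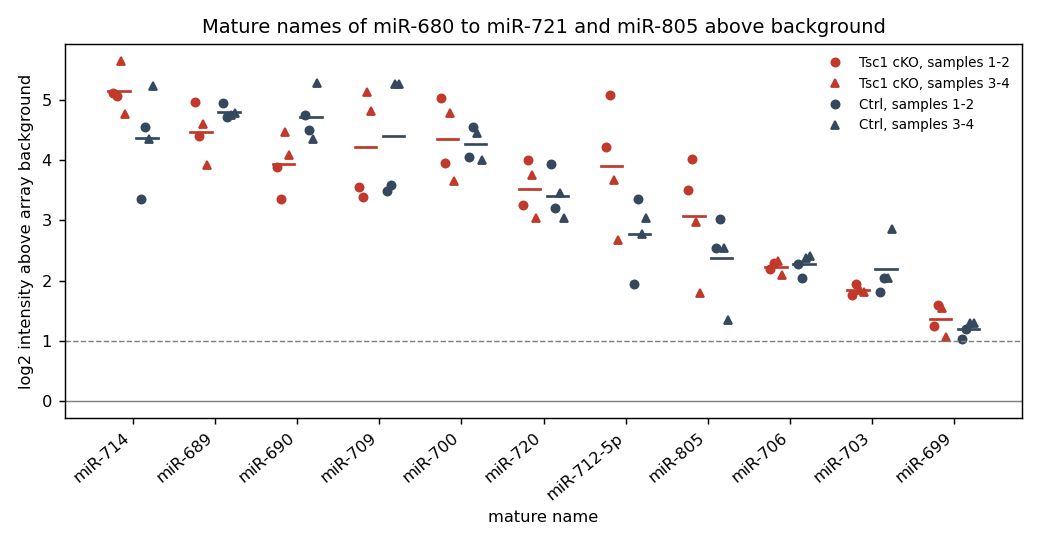
Log2 intensity above the array's background (vertical axis) of the 11 bright mature names (horizontal axis, brightest first), with Tsc1 cKO in red left of Ctrl in dark blue, circles for samples 1 and 2, triangles for samples 3 and 4, and a bar at each group mean. The dashed line marks 1 log2 unit, and the groups overlap for every name shown.

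The brightest mature member was miR-714, sixth of all 433 names, followed by miR-689 in place 7, miR-690 in place 11, miR-709 in place 13 and miR-700 in place 14. Precursor probes of the block stood out more often: 11 of 39 members were bright (28.2%), against 34 of all 274 precursor names (12.4%). They were miR-714, miR-706, miR-689, miR-718, miR-699, miR-696, miR-685, miR-715, miR-705, miR-703 and miR-805. The miR-714 precursor, at 5.33 log2 units above background, was the brightest of all precursor names, and 3 of the brightest 10 were members. miR-805 lay just inside the threshold at 1.02 and miR-700 just outside at 0.69. A further 27 of 39 members were within 0.5 log2 units of background, against 224 of 274 names.

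**Figure D2:**
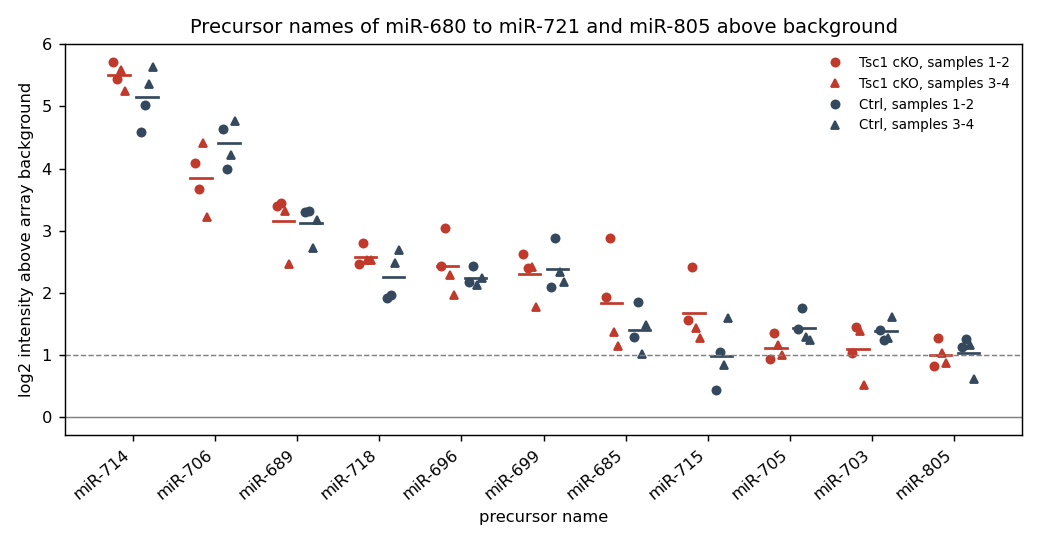
Log2 intensity above the array's background (vertical axis) of the 11 bright precursor names (horizontal axis, brightest first), drawn as Tsc1 cKO left of Ctrl with circles for samples 1 and 2, triangles for samples 3 and 4 and bars at group means. miR-714 stands highest at a mean of 5.33, and the groups overlap for every name.

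The same exact name was found in both tables for 39 members and 224 other names, which allowed the forms to be set side by side. Both forms were bright for 6 members, miR-689, miR-699, miR-703, miR-706, miR-714 and miR-805, which is 15.4% of the matched members against 3.12% of the other matched names (7 of 224). Only the mature form was bright for miR-690, miR-700, miR-709 and miR-720 (10.3%, against 23.2% of the others). Only the precursor form was bright for miR-685, miR-696, miR-705, miR-715 and miR-718 (12.8%, against 5.8%). The remaining 24 members (61.5%) were bright in neither form, against 67.9% of the others.

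**Figure D3:**
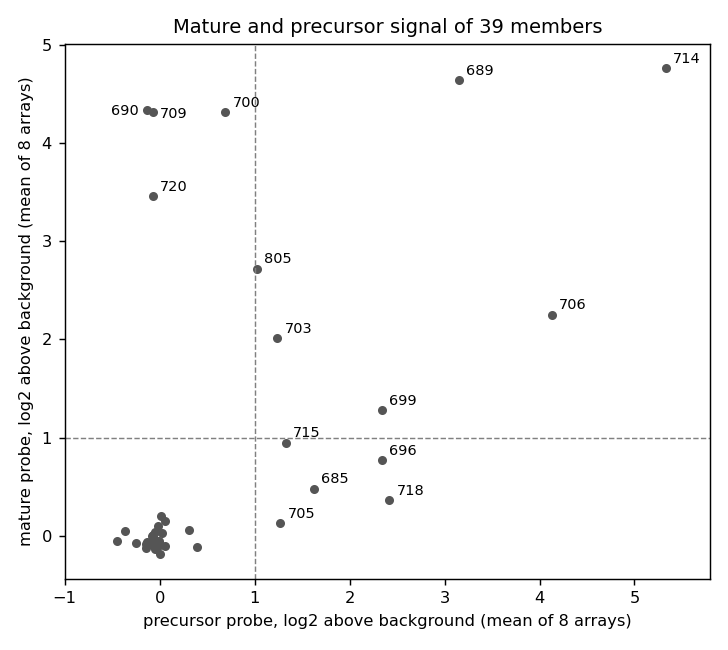
Mean log2 intensity above background over the 8 arrays of the mature probe (vertical axis) against the precursor probe (horizontal axis) for the 39 members found in both tables, with dashed lines at 1 log2 unit. Labelled points are bright in at least 1 form; miR-690, miR-709 and miR-720 have bright mature probes beside precursor probes at background, and miR-714, miR-689 and miR-706 are far above background in both.

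The gap between forms was wide at both ends. The mature minus precursor difference of miR-690 averaged 4.47 log2 units over the 8 arrays and was above 0 on all 8. For miR-718 it averaged -2.07, for miR-706 -1.87, for miR-696 -1.57 and for miR-705 -1.14, and for these 4 names it was below 0 on every array. For miR-714, whose probes were bright in both tables, it averaged -0.56. Because the probes of the forms differ in affinity, these differences describe probes, and only their change between groups was compared. The mature and precursor values may have been normalized separately, so what the forms share on an array cancels only in part.

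Probes that carry the same name gave a check of how well a name is measured. The 3 mature probes of miR-689 lay 3.45, 4.91 and 5.56 log2 units above background, a 4.31-fold spread, and their fold changes ran from -0.46 to -0.24. Its 3 precursor probes lay between 3.12 and 3.17. The probes of miR-680 (5 of them), miR-684 and miR-692 (3 each) lay at background in both tables.

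Tsc1 cKO and Ctrl were compared with limma over each whole table. No mature name of 433 passed an adjusted p of 0.05 (0%), and 19 (4.39%) had an unadjusted p under 0.05, 17 of them lower in Tsc1 cKO and 2 higher. Among the 43 members, 0 passed, and 2 had such an unadjusted p, miR-690 with a lower and miR-712*-3p with a higher mean in Tsc1 cKO. Nothing is read from these counts, since the block was chosen with the comparison known. The fold changes below are therefore descriptions of 4 against 4 mice with standard errors (SE), and none of them passed the test.

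Mature fold changes of the block were spread around 0: 21 of 43 (48.8%) were negative, against 281 of all 433 names (64.9%), with a median of 0.00 against -0.04. With arrays centred on their medians the split was 13 of 43 (30.2%) against 216 of 433 (49.9%), and with quantile normalization 13 of 43 against 185 of 433 (42.7%). Among bright names, 5 of 11 members were negative, with a median of 0.07, against 76 of all 94 bright names (80.9%), with a median of -0.24. With quantile normalization these were 3 of 11 (27.3%) and 48 of 94 (51.1%). The difference between members and other names was not tested. In 32 of 43 members the fold change lay within 0.25 log2 units of 0, and for no member were the groups free of overlap (4 of all 433 names, 0.924%).

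The names from ribosomal or mitochondrial RNA lay at the upper end. All 5 mature names of miR-712, miR-714, miR-715 and miR-805 had a higher mean in Tsc1 cKO, with a median log2 fold change of 0.98 and a range of 0.68 to 1.11, and the sign was the same for each of them in all alternatives tried. The ribosomal names share a transcription unit, and all 5 were read in the same mice, so they are not independent observations. The alternatives reuse those arrays. Of the 11 mature names in the whole table with a log2 fold change of at least 0.6 (2.54%), 6 were members, these 5 and miR-696. For miR-712*-3p, miR-715 and miR-696 most or all Ctrl arrays were not bright, and how large their fold changes are is poorly resolved.

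**Figure D4:**
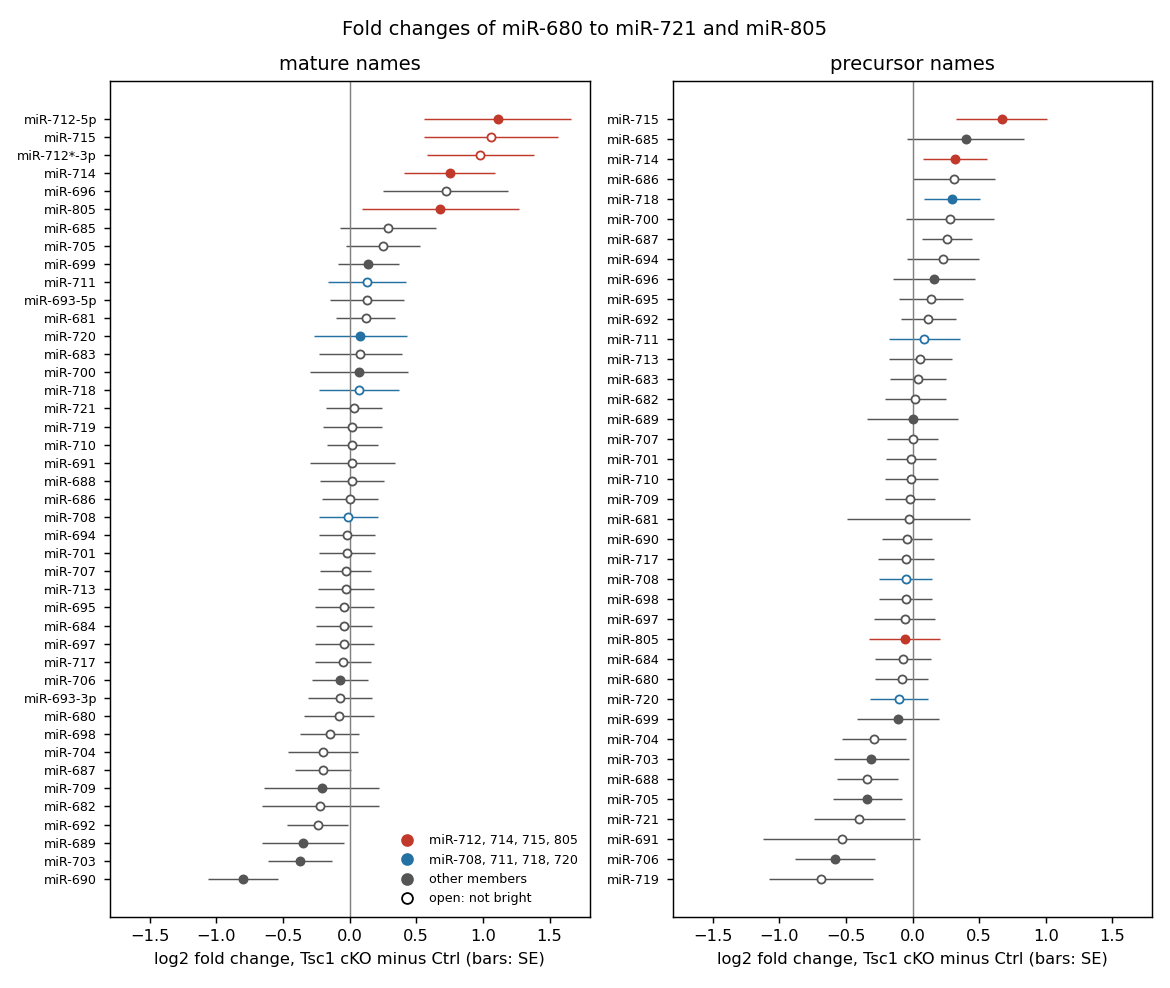
Log2 fold change, Tsc1 cKO minus Ctrl (horizontal axis, bars show SE), of all 43 mature (left) and 39 precursor (right) members, ordered by size, in red for miR-712, miR-714, miR-715 and miR-805 and in blue for miR-708, miR-711, miR-718 and miR-720. Filled points are bright; the red mature names stand at the top between 0.68 and 1.11, and miR-690 at the bottom at -0.80.

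miR-712 comes from a spacer of the ribosomal RNA precursor and is known in mouse endothelium as a flow-sensitive miRNA. The log2 intensity of miR-712-5p was 19.20, 20.12, 18.29 and 17.23 in Tsc1 cKO 1 to 4, against 16.96, 18.36, 17.40 and 17.67 in Ctrl 1 to 4. By intensity Tsc1 cKO 1 and 2 were above all Ctrl mice, while Tsc1 cKO 3 and 4 lay inside the Ctrl range. Measured from background, Tsc1 cKO 3 (3.67) was also above the highest Ctrl mouse (3.35), and only Tsc1 cKO 4 (2.67) lay inside. The mean was 18.71 ± 1.24 in Tsc1 cKO and 17.60 ± 0.58 in Ctrl (SD, n = 4 each), a 2.16-fold difference (log2 1.11, SE 0.55). Within samples 1 and 2 the log2 difference was 2.00, and within samples 3 and 4 it was 0.23.

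The probe for the opposite arm, miR-712*-3p, showed a like order of mice at a much dimmer level. It gave 15.94, 16.65, 15.53 and 14.85 in Tsc1 cKO mice, against 13.99, 15.35, 14.67 and 15.06 in Ctrl mice. All but Tsc1 cKO 4 were above every Ctrl mouse, yet only 1 Tsc1 cKO array and no Ctrl array was bright. The log2 fold change was 0.98 (SE 0.40), with 1.62 in samples 1 and 2 and 0.33 in samples 3 and 4. The Ctrl mean lay 0.05 log2 units under background, so the size of this change rests on a level that the array did not resolve.

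For miR-714 the mature probe gave 20.09, 20.09, 20.27 and 19.33 in Tsc1 cKO mice, against 18.37, 19.55, 18.98 and 19.87 in Ctrl mice. Here the intensities of Tsc1 cKO 1, 2 and 3 were above all Ctrl mice and that of Tsc1 cKO 4 lay among them. Measured from background, only Tsc1 cKO 3 (5.65) was above Ctrl 4 (5.23). The log2 fold change was 0.75 (SE 0.34), a 1.68-fold difference, with 1.13 in samples 1 and 2 and 0.38 in samples 3 and 4. Its precursor probe gave 20.70, 20.47, 20.20 and 19.81 in Tsc1 cKO mice, against 19.61, 20.02, 19.99 and 20.26 in Ctrl mice. The precursor difference was smaller, 0.32 (SE 0.24), and it changed sign between samples 1 and 2 (0.77) and samples 3 and 4 (-0.12).

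miR-715 was dim as a mature probe and bright as a precursor. The mature probe gave 16.58, 17.50, 15.51 and 15.54 in Tsc1 cKO mice, against 14.50, 15.68, 14.64 and 16.08 in Ctrl mice. Tsc1 cKO 1 and 2 exceeded all Ctrl mice, and the log2 fold change of 1.06 (SE 0.50) was 1.95 in samples 1 and 2 and 0.17 in samples 3 and 4. Only 2 Tsc1 cKO arrays and 1 Ctrl array were bright for this probe. The precursor probe gave 16.54, 17.43, 16.06 and 15.83 in Tsc1 cKO mice, against 15.45, 16.05, 15.47 and 16.23 in Ctrl mice. Its log2 fold change of 0.67 (SE 0.34) was the highest of the precursor members, and again it came mostly from samples 1 and 2 (1.23, against 0.10 in samples 3 and 4).

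miR-805, the mitochondrial name, varied more between mice than between groups. Its mature probe gave 18.48, 19.04, 17.59 and 16.35 in Tsc1 cKO mice, against 17.57, 18.02, 17.17 and 15.98 in Ctrl mice. In both groups sample 2 was the highest and sample 4 the lowest. The log2 fold change was 0.68 (SE 0.59), with 0.96 in samples 1 and 2 and 0.39 in samples 3 and 4. The precursor probe, near the brightness threshold, had a log2 fold change of -0.06 (SE 0.27).

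**Figure D5:**
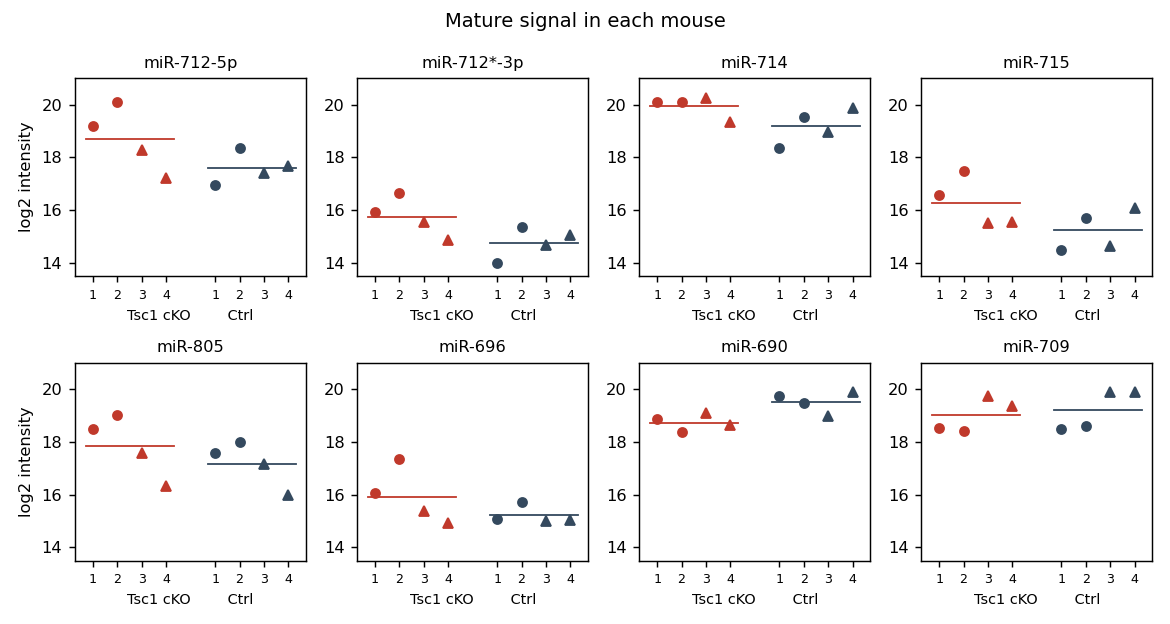
Log2 intensity (vertical axis) of 8 mature probes in each mouse (horizontal axis), with Tsc1 cKO 1 to 4 in red left of Ctrl 1 to 4 in dark blue, circles for samples 1 and 2, triangles for samples 3 and 4, and lines at group means. Tsc1 cKO 2 is the highest mouse for miR-712-5p, miR-712*-3p, miR-715, miR-805 and miR-696, and miR-709 is higher in samples 3 and 4 of both groups.

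Tsc1 cKO 2 recurred at the top of these names, though not for miR-714, and Ctrl 1 recurred at the bottom of several. Measured from background, Tsc1 cKO 2 was the highest of the 8 arrays for 13 of 43 mature members (30.2%) and for 79 of all 433 mature names (18.2%). Tsc1 cKO 4 was the lowest for 9 members (20.9%) and for 127 of all names (29.3%). Ctrl 1 was the lowest for 8 members (18.6%) and for 47 of all names (10.9%). Those members included miR-712-5p, miR-712*-3p, miR-714 and miR-715. Without Ctrl 1 the mature log2 fold change was 0.90 for miR-712-5p, 0.72 for miR-712*-3p and 0.82 for miR-715. Without Tsc1 cKO 2 the mature log2 fold change was 0.64 for miR-712-5p, 0.68 for miR-712*-3p and 0.65 for miR-715, and without Tsc1 cKO 4 it was 1.60 for miR-712-5p and 1.27 for miR-712*-3p. For miR-805 it ran from 0.28 without Ctrl 4 to 1.18 without Tsc1 cKO 4, and for miR-714 from 0.48 without Ctrl 1 to 0.98 without Ctrl 4.

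Among the remaining members, miR-690 had the lowest mature fold change. It has been studied in mouse macrophage exosomes in connection with insulin sensitivity. Its log2 intensity was 18.86, 18.37, 19.09 and 18.64 in Tsc1 cKO mice, against 19.76, 19.50, 18.99 and 19.92 in Ctrl mice. Tsc1 cKO 1, 2 and 4 were below all Ctrl mice, and Tsc1 cKO 3 was just above Ctrl 3. The mean was 18.74 ± 0.31 in Tsc1 cKO and 19.54 ± 0.41 in Ctrl (SD, n = 4 each), a log2 fold change of -0.80 (SE 0.26), or 1.74-fold higher in Ctrl. The difference had the same sign within samples 1 and 2 (-1.02) and within samples 3 and 4 (-0.59), and in all alternatives it lay between -1.02 and -0.53. The miR-690 precursor lay at background, with a log2 fold change of -0.04.

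miR-696, reported in mouse muscle to act on the coactivator PGC-1α, was the member outside the ribosomal and mitochondrial names with the highest mature fold change, 0.72 (SE 0.47). Its mature probe gave 16.06, 17.37, 15.37 and 14.92 in Tsc1 cKO mice, against 15.08, 15.74, 14.99 and 15.05 in Ctrl mice. By intensity only Tsc1 cKO 1 and 2 stood clear of the Ctrl mice, and Tsc1 cKO 4 was the lowest of all 8. Measured from background, Ctrl 1 was the lowest (0.07), and Tsc1 cKO 3 (0.75) lay beside Ctrl 2 (0.74). No Ctrl array was bright, and the difference was 1.30 in samples 1 and 2 and 0.13 in samples 3 and 4. Without Tsc1 cKO 2 the log2 fold change was 0.24. The precursor probe was bright on every array and gave 17.41, 18.06, 16.91 and 16.52 in Tsc1 cKO mice, against 17.19, 17.44, 16.76 and 16.87 in Ctrl mice, a log2 fold change of 0.16 (SE 0.31).

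The groups overlapped for the other bright mature members as well. The mean of the 3 miR-689 probes was 19.95, 19.43, 19.22 and 18.49 in Tsc1 cKO mice, against 19.96, 19.72, 19.37 and 19.42 in Ctrl mice (log2 fold change -0.35, SE 0.31). miR-703 gave 16.74, 16.96, 16.46 and 16.38 in Tsc1 cKO mice, against 16.83, 17.05, 16.67 and 17.48 in Ctrl mice (-0.37, SE 0.24). In both names the intensities of Tsc1 cKO 3 and 4 lay under all Ctrl mice and those of Tsc1 cKO 1 and 2 among them. This order mixes in the lower background of samples 3 and 4. Measured from background, Tsc1 cKO 2, 3 and 4 (4.41, 4.6 and 3.92) lay under all Ctrl mice for miR-689. For miR-703, Tsc1 cKO 1 (1.76) was lowest and Tsc1 cKO 3 (1.84) was above Ctrl 1 (1.81). Within samples 1 and 2 the log2 differences were -0.15 (miR-689) and -0.09 (miR-703). Within samples 3 and 4 they were -0.54 and -0.65.

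miR-700 gave 20.01, 18.98, 19.41 and 18.21 in Tsc1 cKO mice, against 19.06, 19.56, 19.09 and 18.63 in Ctrl mice (0.07, SE 0.37). miR-706, the B1-like sequence, gave 17.18, 17.32, 16.95 and 16.65 in Tsc1 cKO mice, against 17.30, 17.05, 16.99 and 17.04 in Ctrl mice (-0.07, SE 0.21, and 0.22 with quantile normalization). miR-699 gave 16.22, 16.61, 16.16 and 15.63 in Tsc1 cKO mice, against 16.04, 16.19, 15.91 and 15.93 in Ctrl mice (0.14, SE 0.23). By intensity the Ctrl mice lay inside the Tsc1 cKO range for all 3, and measured from background they did so for miR-700 alone.

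miR-709 followed the sample sets and not the genotype. It gave 18.52, 18.41, 19.75 and 19.38 in Tsc1 cKO mice, against 18.50, 18.60, 19.89 and 19.91 in Ctrl mice, and the log2 fold change was -0.21 (SE 0.43). Samples 3 and 4 were higher than samples 1 and 2 in both groups, although the background of samples 3 and 4 was lower. No other bright member had this order on all 8 arrays.

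Of the names that also exist in human, only miR-720 was bright as a mature probe. This transfer RNA fragment gave 18.24, 19.02, 18.38 and 17.60 in Tsc1 cKO mice, against 18.95, 18.21, 18.09 and 17.67 in Ctrl mice (log2 fold change 0.08, SE 0.35), and its precursor probe was at background. miR-708, miR-711 and miR-718 lay 0.04, -0.12 and 0.36 log2 units from background as mature probes, with log2 fold changes of -0.01, 0.13 and 0.07. miR-718 was bright as a precursor, at 17.45, 17.83, 17.15 and 17.09 in Tsc1 cKO mice, against 16.94, 16.96, 17.10 and 17.32 in Ctrl mice. The precursor difference of 0.30 (SE 0.21) was 0.69 in samples 1 and 2 and -0.09 in samples 3 and 4.

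In the precursor table no name of 274 passed an adjusted p of 0.05 by limma (0%), and 7 had an unadjusted p under 0.05 (2.55%), none of them a member. Fold changes were negative for 22 of 39 members (56.4%) and for 162 of all 274 names (59.1%), and with quantile normalization for 17 of 39 (43.6%) and 130 of 274 (47.4%). Among bright names they were negative for 5 of 11 members, with a median of 0.00, and for 25 of all 34 bright names (73.5%), with a median of -0.31. With quantile normalization these were 3 of 11 and 21 of 34 (61.8%). No member had groups without overlap (3 of 274 names, 1.09%).

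The lowest bright precursor member was miR-706. Its precursor probe gave 19.06, 18.70, 19.04 and 17.78 in Tsc1 cKO mice, against 19.66, 19.00, 18.84 and 19.39 in Ctrl mice. Tsc1 cKO 2 and 4 were below all Ctrl mice, and the log2 fold change was -0.58 (SE 0.30), which was -0.03 with quantile normalization. The miR-719 precursor had the lowest fold change of all members, -0.69 (SE 0.39), but at 0.36 log2 units under background. Next at the low end were the dim precursors of miR-691 (-0.53, SE 0.59) and miR-721 (-0.40, SE 0.34), both outside the rule for naming, and then miR-688 and miR-705, both at -0.34.

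The miR-685 precursor was the one with the widest spread among the bright precursor members: it gave 16.91, 17.91, 15.99 and 15.71 in Tsc1 cKO mice, against 16.30, 16.85, 15.65 and 16.12 in Ctrl mice. Its log2 fold change was 0.40 (SE 0.44), with 0.83 in samples 1 and 2 and -0.03 in samples 3 and 4. The mean of the miR-689 precursor was 17.95 in both groups. The precursors of miR-699 and miR-703 had log2 fold changes of -0.11 (SE 0.31) and -0.31 (SE 0.28).

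The title of the series concerns miRNA biogenesis, so the balance of mature over precursor signal was also compared, as the per-mouse difference of log2 values. No name of 263 passed an adjusted p of 0.05 by limma (0%), and 17 had an unadjusted p under 0.05 (6.46%), among them 3 of 39 members. The members' median change was 0.02 log2 units, and the median of all names was -0.02. Groups were free of overlap for 3 members, miR-705, miR-696 and miR-687, against 13 of all 263 names (4.94%). As before, nothing is read from these counts.

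For miR-705 the mature minus precursor difference was -0.73, -1.06, -0.77 and -0.81 in Tsc1 cKO mice, against -1.26, -1.56, -1.07 and -1.83 in Ctrl mice. Every Tsc1 cKO mouse was above every Ctrl mouse, though by 0.01 between the nearest pair, and the change was 0.59 log2 units (SE 0.18). The mature probe lay 0.13 log2 units above background. The precursor probe gave 15.92, 16.37, 15.78 and 15.56 in Tsc1 cKO mice, against 16.44, 16.75, 15.91 and 15.88 in Ctrl mice, with a mean change of -0.34 (SE 0.26).

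For miR-696 the difference was -1.35, -0.69, -1.54 and -1.60 in Tsc1 cKO mice, against -2.11, -1.70, -1.76 and -1.82 in Ctrl mice, a change of 0.55 (SE 0.22). All Tsc1 cKO mice lay above all Ctrl mice, with 0.88 in samples 1 and 2 and 0.22 in samples 3 and 4. For miR-687, whose locus lies in the span of Rb1, the difference was 0.03, -0.68, -0.01 and -0.02 in Tsc1 cKO mice, against 0.36, 0.66, 0.07 and 0.06 in Ctrl mice. Its change of -0.46 (SE 0.22) joins a pair of probes that were both at background.

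miR-690 had the lowest change of balance, -0.76 (SE 0.27). Its difference was 4.09, 3.53, 4.51 and 4.21 in Tsc1 cKO mice, against 4.86, 4.64, 4.49 and 5.41 in Ctrl mice, and 3 of 4 Tsc1 cKO mice were lower than every Ctrl mouse. Since the precursor probe was at background, this change repeats that of the mature probe. The highest change was that of miR-805, 0.74 (SE 0.43), with a difference of 2.67, 2.74, 1.94 and 0.92 in Tsc1 cKO mice, against 1.42, 1.75, 1.39 and 0.74 in Ctrl mice. The ribosomal names miR-714 and miR-715 had changes of 0.43 (SE 0.24) and 0.39 (SE 0.23), and miR-706 had 0.51 (SE 0.25).

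Sequence composition was also set beside brightness for the members with a sequence and a settled arm. The 3 bright mature members among them, miR-690, miR-703 and miR-706, had a median GC content of 36.4%, and the dim ones had 52.4%. The other bright mature members had no sequence or no settled arm and were not included. Across the 26 names used, GC content and brightness had a Pearson r of -0.33. For the hairpins of 25 precursor names r went the other way, at 0.23. There the 3 bright names, miR-703 (31.2%), miR-705 (56.1%) and miR-718 (78.4%), had a median GC content of 56.1% and the dim ones 53.2%. The other bright precursor members had no hairpin sequence and were not included. These values are given as descriptions across probes that share the same 8 arrays, without a p.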

How the data were processed

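Per the labels' protocols, the authors used TRIzol to isolate RNA, reverse transcribed 5 μg of it from biotinylated random octamers and read bound streptavidin-Alexa647. The deposited values are intensity on a linear scale, in a mature and a precursor table; no normalization method was found in the labels or the file comment, a template text that asks for normalized signal, and array medians differed. Every value was a positive multiple of 0.5. A further deposited table equalled the mature table in every cell. Here values became log2(value + 1), and probes of a name were averaged. Background was the mode of an array's log2 values over both tables (Gaussian bandwidth 0.1), and bright meant over 1 log2 unit above it. limma 3.58.1 in R 4.3.3 (lmFit, eBayes, no block) was fitted on each whole table, and on the mature minus precursor differences of names in both tables, with Benjamini-Hochberg threshold 0.05; it was tested on simulated data. Forms were matched by exact name. Figures used Python 3.11.15 and matplotlib 3.10.9. The labels call each sample a biological replicate. Precision is limited by the number of arrays.

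The members, the member and marker lists and the rule for naming were chosen with earlier results of these data known. The rule named members that were bright in either table, the 5 with the smallest unadjusted p and the extreme fold changes of each fit, the ribosomal and mitochondrial names and the names shared with human. Deviations of same-numbered samples correlated at 0.101, 0.349, 0.0927 and 0.329 (mature) and at 0.144, 0.134, 0.024 and -0.0341 (precursor). The highest correlation of each Tsc1 cKO sample with a differently numbered Ctrl sample was 0.446, -0.0225, 0.187 and 0.0319 (mature). For precursors it was 0.0498, 0.0264, 0.281 and 0.0743. Nothing in the labels pairs the mice, so the fit has no block.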

Additional observations from a re-analysis of the deposited data

Results flagged for a closer look

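Of 84 groups of 4 arrays examined for the named members, 1 held a sample far from the others (1.19%; chance alone flags about 1 in 20). The mature miR-696 probe was at 15.74 in Ctrl 2, while the other Ctrl mice lay between 14.99 and 15.08, so the gap to the nearest of them made up a fraction of 0.88 of the group's range. Its fold change of 0.72 includes this mouse.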

How the results depend on the processing

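No name passed an adjusted p of 0.05 in the mature, precursor or mature minus precursor fits under any of the 20 alternatives, including each left-out mouse. The members' median change ranged from -0.09 to 0.08 (mature), -0.12 to 0.06 (precursor) and 0.01 to 0.04 (mature minus precursor) with 1 mouse left out, and bright members numbered 11 to 12 and 10 to 11. The mature minus precursor median was 0.18 with bright names only and -0.01 in samples 1 and 2 alone. With a threshold of 2 log2 units, 6 precursor members were bright, and of all precursor names 5.47% were. The count of members with a negative fold change moved both ways. From 21 of 43 mature members it became 13 with centring or quantile normalization and 28 in samples 3 and 4 alone; it was 30, 30, 13 and 10 without Tsc1 cKO 1, 2, 3 and 4, and 11, 12, 26 and 31 without Ctrl 1, 2, 3 and 4. From 22 of 39 precursor members it became 26, 29, 16 and 9 without Tsc1 cKO 1, 2, 3 and 4, and 14, 13, 25 and 26 without Ctrl 1, 2, 3 and 4. It was 6 in both tables on the arrays labelled with the commonest scanner model. That subset sets Tsc1 cKO 1 and 2, from the brighter sample set, against all 4 Ctrl arrays of both sets, so set and genotype are mixed in it, and the model names of the other arrays are in doubt. Over all alternatives, miR-712-5p ranged from 0.23 to 2.06, miR-712*-3p from 0.33 to 1.62, miR-714 from 0.38 to 1.14, miR-715 from 0.17 to 1.95 and miR-805 from 0.28 to 1.57; the upper ends of miR-712-5p and miR-805 come from that subset. With 1 mouse left out, mature miR-696 ranged from 0.24 (without Tsc1 cKO 2) to 1.05 (without Tsc1 cKO 4) and miR-690 from -0.99 to -0.68. Of 62 named fold changes, 31 kept their sign throughout; the cause of the moves was not tested. The labels do not state that the numbers pair the mice, and whether they do was not settled. With the replicate number as a block limma gave 0 calls in each fit. In these limma fits 48 (mature), 15 (precursor) and 29 (mature minus precursor) names had an unadjusted p under 0.05. The lowest adjusted p by limma was 0.0581, 0.267 and 0.271.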
